A study of Rattus norvegicus with 8 samples.

Results

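The 39 genes described here encode the collagens of the colon wall and the glycoproteins, proteoglycans, crosslinking enzymes and inhibitors that build and hold the extracellular matrix around them. They were taken by symbol from the gene names printed in the array files. Of the 39, 37 had at least 1 probe under their own symbol, carried by 48 of the 30367 probes on the array, and Lamb1 and Hspg2 had none. Thbs1 was well above background on only 1 array and was not tested, so 36 members were among the 18171 genes tested. Of these, 34 were well above background on all 8 arrays, as were 13814 genes in all. Col6a3 was well above background on the 2 healthy arrays alone, and Lox on all arrays except those of fish oil colitis. Counts and medians below are over those 34 members, so that no member enters a count through the group where it is high.

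Collagens are triple helices of chains in which glycine recurs at a fixed interval. The fibrillar types I, III and V give the submucosa its tensile strength, type IV and the laminins form the sheet under the epithelium and around vessels, and type VI forms beaded filaments around the fibres. Fibroblasts and smooth muscle cells secrete most of this matrix in the gut, and matricellular proteins such as tenascin C and osteopontin are laid down mainly where tissue is injured or remodelled. Dextran sulfate sodium given in drinking water damages the colonic epithelium of rodents and causes colitis.

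Colon RNA came from female Wistar rats aged 14 weeks that had eaten 1 of 3 oils for 8 weeks: a diet enriched with α-linolenic acid (ALA, the plant n-3 fatty acid), with fish oil (rich in the long-chain n-3 fatty acids), or with sunflower oil, an n-6 source. The ALA, fish oil and n-6 groups (10 rats each) received 5% dextran sulfate sodium for 7 days, and the healthy group (6 rats) ate the sunflower oil diet without it, so by design n-6 colitis and healthy colon differ in colitis and the 3 colitis groups in the oil. RNA of 6 rats was pooled in each group and hybridised to 2 Agilent 1-colour arrays. Whether both arrays of a group hold the same pool is not stated. Any 2 pools of 6 from 6 or 10 rats share rats, so the arrays of a group are not independent samples of animals. The spread between them may be technical. Standard errors and p-values below do not measure the full spread between rats. The labels compare the groups with n-6 colitis.

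Levels are log2 processed signal minus the 75th percentile of the array, so 0 marks a gene at that percentile, and a difference of 1 is a doubling. A probe's brightness depends on its sequence, so levels are compared between arrays and not between genes. All 11 colon epithelium markers, among them Cdx2, Slc26a3 and Muc2, were well above background on all 8 arrays. All arrays lay on 1 slide, with ALA and healthy in its first row and fish oil and n-6 in its second. ALA and fish oil lay in columns 1 and 2, and healthy and n-6 in columns 3 and 4. Each group thus had its own place, and place and group cannot be told apart in any of the 6 comparisons. In bulk tissue, fewer cells of a type and less RNA per cell cannot be told apart.

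In n-6 colitis most matrix genes stood above healthy colon, and in both n-3 colitis groups most stood below n-6 colitis, but single genes did not pass the test over all genes. The difference of n-6 colitis minus healthy was above 0 for 31 of the 34 members (46.7% of all 13814 genes), with a median of 0.95, against -0.04 over all of them. ALA colitis minus n-6 colitis was above 0 for 3 of the 34 (57.4% of all genes) and below 0 for 31, with a median of -0.77 (0.08 over all genes). Fish oil colitis minus n-6 colitis was also above 0 for 3 (60.2% of all genes) and below 0 for 31, with a median of -0.83 (0.16 over all genes). All 3 comparisons use the same 2 n-6 arrays, so they are not independent of each other.

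With limma and Benjamini-Hochberg adjustment over all genes, 0 of the 36 members tested passed an adjusted p of 0.05 in n-6 colitis against healthy, where 0.0275% of all genes passed as higher and 0.0055% as lower. At an unadjusted p under 0.05, 18 of the 34 members were higher in n-6 colitis, against 5.52% of all genes, and 0 were lower, against 8.76%. Both n-6 arrays lay above both healthy arrays for 27 of the 34 (22.2% of all genes), and below them for Nid1 alone (25.4%). In ALA against n-6 colitis limma again passed 0 members (0.011% of all genes higher, 0.022% lower), and 8 of the 34 were lower at an unadjusted p under 0.05 (2.19% of all genes) and 0 were higher (2.37%). ALA arrays lay below both n-6 arrays for 21 members (12.1%) and above them for 0 (15.8%). In fish oil against n-6 colitis limma passed 0 members (0.0165% of all genes higher, 0.022% lower), with 11 lower (3.68%) and 0 higher (8.58%) at an unadjusted p under 0.05. The fish oil arrays lay below both n-6 arrays for 27 members (17.4%) and above them for 0 (30.9%).

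These counts lean on single arrays. Replicate 1 of n-6 colitis was higher than replicate 2 for 28 of the 34 members, by a median of 0.58, while over all genes the median gap between those arrays was -0.01. Without n-6 replicate 1 the median of n-6 minus healthy was 0.72, that of ALA minus n-6 was -0.43 and that of fish oil minus n-6 was -0.57. The members higher in n-6 colitis than in healthy colon at an unadjusted p under 0.05 then numbered 4 (3.95% of all genes in the same fit), and also 4 without healthy replicate 2 (2.23%). For ALA against n-6, 3 members were lower without n-6 replicate 1 (2.34% of all genes) and 14 without n-6 replicate 2 (2.72%). For fish oil against n-6, leaving out n-6 replicate 1 gave 3 lower members (1.28%). Leaving out the first or the second fish oil array gave 7 (2.22%) or 3 (1.36%). Of the 43 differences of single members taken through the alternatives, 24 moved by over 1.5 times under at least 1 of them, and those values stand beside the genes.

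**Figure D1:**
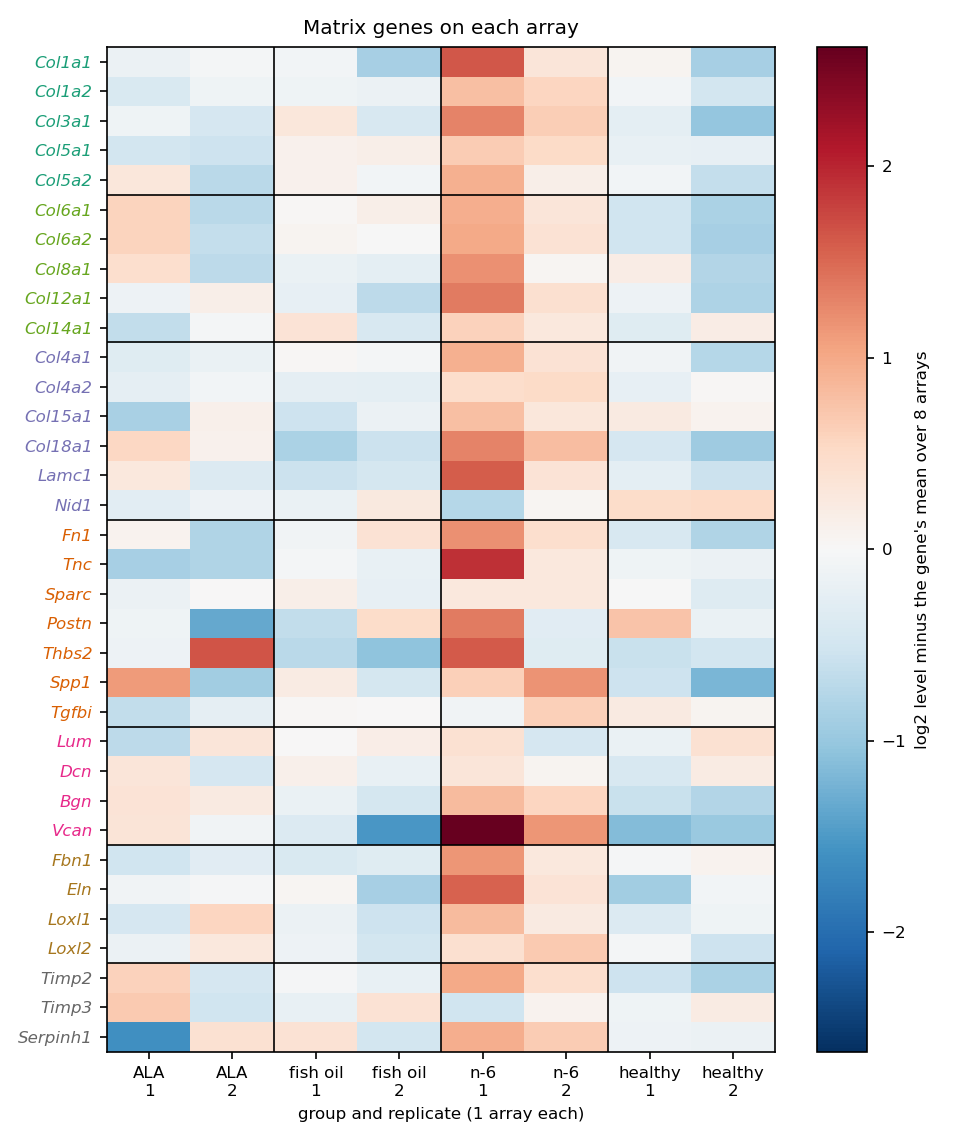
Level of the 34 members well above background on all 8 arrays (rows, coloured and ruled off by role) on each array (columns: ALA, fish oil, n-6, healthy, 2 replicates each), as log2 level minus the gene's mean over the 8 arrays. The first n-6 column is the reddest for most rows, the second is paler, and Nid1 and Timp3 run the other way.

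Among the fibrillar collagens, which form the cable-like fibres of the gut wall, all 5 members were above 0 in n-6 minus healthy and below 0 in both n-3 minus n-6 comparisons. Col3a1, the chain of type III collagen that is abundant in distensible organs, was the brightest of them. It stood at 4.31 and 3.97 in ALA colitis, 4.72 and 4.0 in fish oil colitis, and 5.71 and 5.05 in n-6 colitis, against 4.15 and 3.40 in healthy colon. Both n-6 arrays were above all other arrays. The difference of n-6 minus healthy was 1.61 (SE 0.432, unadjusted p = 0.0075, adjusted p = 0.196), or 3.05-fold, that of ALA minus n-6 was -1.24 (SE 0.432, adjusted p = 0.792) and that of fish oil minus n-6 was -1.02 (SE 0.432, adjusted p = 0.394).

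Col1a2, the second chain of type I collagen, read 3.26 and 3.54 in ALA colitis, 3.54 and 3.51 in fish oil colitis, and 4.44 and 4.22 in n-6 colitis, against 3.59 and 3.18 in healthy colon. Its 6 other arrays spanned a narrow range below both n-6 arrays. The n-6 minus healthy difference was 0.95 (SE 0.30, adjusted p = 0.236), the ALA minus n-6 difference -0.93 (adjusted p = 0.785) and the fish oil minus n-6 difference -0.81 (adjusted p = 0.388). Col1a1, its partner chain, differed by 1.38 in n-6 minus healthy (SE 0.550, adjusted p = 0.319), with n-6 replicate 1 at 4.61 and replicate 2 at 3.30.

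Col5a1, the type V chain that sits inside type I fibrils and limits their width, varied little between replicates. It stood at -1.49 and -1.54 in ALA colitis, -0.89 and -0.85 in fish oil colitis, and -0.34 and -0.49 in n-6 colitis, against -1.20 and -1.21 in healthy colon. The 4 groups did not overlap, and ALA colitis was the lowest of them. ALA minus n-6 was -1.10 (SE 0.267, unadjusted p = 0.00446, adjusted p = 0.785), the smallest unadjusted p of any member in that comparison, and n-6 minus healthy was 0.79 (adjusted p = 0.253). ALA minus fish oil was -0.65 (unadjusted p = 0.0460, adjusted p = 0.513). Col5a2, the other type V chain, differed by 0.90, -0.74 and -0.52 in n-6 minus healthy, ALA minus n-6 and fish oil minus n-6. Each had an unadjusted p of 0.0900 or more. A second Col5a2 probe, nearly as bright, gave 1.09, -0.86 and -0.87. By limma over probes its unadjusted p was 0.0211 (adjusted p = 0.245), 0.0519 and 0.0507.

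Of the other interstitial collagens, 5 of 5 members on all arrays were above 0 in n-6 minus healthy, with a median of 1.31. Col6a2, the brightest and a chain of the type VI filaments, read 3.96 and 2.77 in ALA colitis, 3.45 and 3.38 in fish oil colitis, and 4.37 and 3.77 in n-6 colitis, against 2.86 and 2.52 in healthy colon. Its partner Col6a1 read 2.60 and 1.30 in ALA colitis, 2.05 and 2.16 in fish oil colitis, and 2.97 and 2.32 in n-6 colitis, against 1.49 and 1.19 in healthy colon. For both genes the n-6 arrays were above the healthy ones, while 1 ALA array reached into the n-6 range and the other did not. The n-6 minus healthy difference was 1.39 for Col6a2 (SE 0.452, adjusted p = 0.242) and 1.31 for Col6a1 (SE 0.478, adjusted p = 0.283).

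Col6a3, the remaining chain of the same filaments, had a dim probe. Its measured signal was not well above background on any ALA, fish oil or n-6 array. It entered the test only through the healthy group, where it was highest, so its differences are not used. Col12a1, a fibril-associated collagen, read 1.63 and 1.92 in ALA colitis, 1.55 and 1.08 in fish oil colitis, and 3.13 and 2.18 in n-6 colitis, against 1.63 and 0.95 in healthy colon. Both n-6 arrays were above all others, with a difference of 1.36 in n-6 minus healthy (SE 0.435, adjusted p = 0.237) and -1.34 in fish oil minus n-6 (adjusted p = 0.388). Without n-6 replicate 1 these were 0.89 and -0.87. Col8a1, a short-chain collagen of vessel walls, and Col14a1, which like type XII binds fibril surfaces, differed by 0.90 and 0.50 in n-6 minus healthy, and the Col8a1 arrays of these groups overlapped.

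In the basement membrane, 5 of the 6 members were above 0 in n-6 minus healthy and Nid1 was below. Col18a1, whose C-terminal fragment is endostatin, separated the groups most clearly. It stood at 0.84 and 0.42 in ALA colitis, -0.52 and -0.27 in fish oil colitis, and 1.61 and 1.12 in n-6 colitis, against -0.14 and -0.63 in healthy colon. Fish oil and healthy arrays overlapped, and the ALA arrays lay between them and n-6 colitis. The n-6 minus healthy difference was 1.75 (SE 0.348, unadjusted p = 0.00154, adjusted p = 0.131) and the fish oil minus n-6 difference -1.76 (unadjusted p = 0.0015, adjusted p = 0.388). ALA minus fish oil was 1.02 (unadjusted p = 0.0220, adjusted p = 0.490).

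Lamc1, the laminin γ1 chain, read 2.28 and 1.64 in ALA colitis, 1.44 and 1.55 in fish oil colitis, and 3.59 and 2.37 in n-6 colitis, against 1.75 and 1.44 in healthy colon. Both n-6 arrays were above all others, but replicate 1 set most of the size of the gap. The differences were 1.38 in n-6 minus healthy (SE 0.462, adjusted p = 0.252) and -1.48 in fish oil minus n-6 (adjusted p = 0.388), and without n-6 replicate 1 they were 0.77 and -0.87.

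Type IV collagen, the network-forming chain pair Col4a1 and Col4a2, gave smaller differences. Col4a1 read 3.52 and 3.65 in ALA colitis, 3.87 and 3.79 in fish oil colitis, and 4.77 and 4.22 in n-6 colitis, against 3.74 and 3.09 in healthy colon. Col4a2, whose probe was far dimmer, read -3.51 and -3.34 in ALA colitis, -3.52 and -3.53 in fish oil colitis, and -2.81 and -2.77 in n-6 colitis, against -3.48 and -3.24 in healthy colon. For both chains the n-6 arrays were above the 6 others. Col4a1 differed by 1.08 in n-6 minus healthy (SE 0.351, adjusted p = 0.242) and by -0.91 in ALA minus n-6 (adjusted p = 0.806), which the authors' deposited value table gave as 0.09. With the mean of its probes these were 0.48 and -0.55. Col4a2 differed by 0.57 in n-6 minus healthy (SE 0.274, adjusted p = 0.396) and by -0.73 in fish oil minus n-6 (adjusted p = 0.388), or -0.44 with normexp and quantile normalization.

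Col4a1 has a second probe that lies within the triple helix, and it is shown because its letters spell the collagen repeat and because it gave another result. It starts at base 4291 of the transcript (chr16:83146135-83146194 on rn4, plus strand), and capitals mark the glycine codons, GG followed by any base, which recur at each ninth base.
Col4a1 triple-helix probe: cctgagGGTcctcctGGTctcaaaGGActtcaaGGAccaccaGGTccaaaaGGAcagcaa
Of the 48 member probes this was the only one with such a codon at every ninth base, and 9 of all 30367 probes had that pattern in some frame. It was well above background on 7 of the 8 arrays. Here n-6 minus healthy was -0.12 (SE 0.353), while the brighter probe further along the transcript gave the 1.08 above, so the direction for Col4a1 rests on 1 probe.

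Col15a1, a collagen of the zone beneath basement membranes, differed by 0.37 in n-6 minus healthy (adjusted p = 0.737). Nid1, the nidogen that links the laminin and type IV networks, read -2.68 and -2.53 in ALA colitis, -2.58 and -2.15 in fish oil colitis, and -3.14 and -2.34 in n-6 colitis, against -1.91 and -1.87 in healthy colon. All 6 colitis arrays were below both healthy arrays, with a difference of -0.85 in n-6 minus healthy (SE 0.360, adjusted p = 0.343) and -0.71 in ALA minus healthy (adjusted p = 0.771), or -0.45 with normexp and quantile normalization. Lamb1, the laminin β1 chain, had no probe under its own symbol, but 1 probe carried its RefSeq accession under another name. That probe read 2.89 and 2.34 in ALA colitis, 2.67 and 1.81 in fish oil colitis, and 3.10 and 2.97 in n-6 colitis, against 2.33 and 2.15 in healthy colon, a difference of 0.79 in n-6 minus healthy (unadjusted p = 0.0789).

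**Figure D2:**
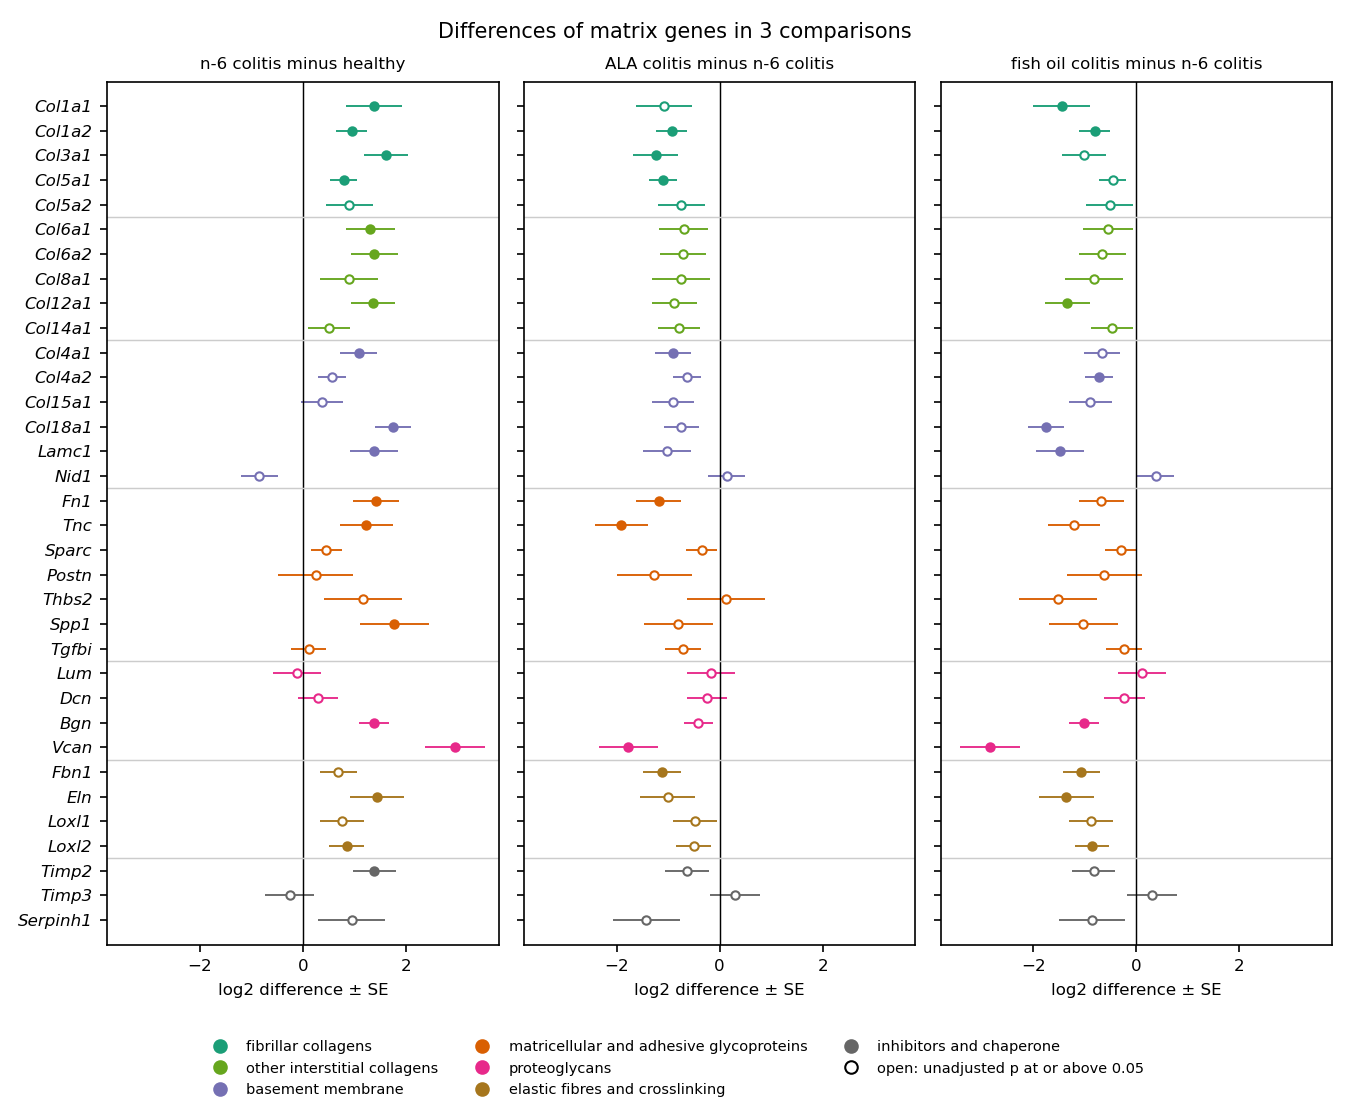
Log2 difference with its standard error for the 34 members (rows, coloured by role) in n-6 colitis minus healthy, ALA colitis minus n-6 colitis and fish oil colitis minus n-6 colitis. Filled points have an unadjusted p under 0.05: 18 to the right of 0 in the first panel, 8 to the left in the second and 11 to the left in the third, and 0 members passed after adjustment.

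The matricellular and adhesive glycoproteins were above 0 in n-6 minus healthy in 7 of 7 members, with a median of 1.17. Their arrays scattered most, however. Fn1, fibronectin, was the brightest. It stood at 3.90 and 3.02 in ALA colitis, 3.72 and 4.19 in fish oil colitis, and 5.01 and 4.26 in n-6 colitis, against 3.40 and 3.02 in healthy colon. The n-6 arrays were above all others, though fish oil replicate 2 came close. The n-6 minus healthy difference was 1.42 (SE 0.438, adjusted p = 0.227) and the ALA minus n-6 difference -1.18 (adjusted p = 0.800), or -0.74 without ALA replicate 2. A second Fn1 probe was far dimmer, from -4.08 to -3.05, but well above background on all 8 arrays. It gave -0.21 and -0.09 in these comparisons, so the direction in n-6 minus healthy rests on 1 probe. The mean of both probes gave 0.61 and -0.63, and the authors' deposited value table gave 0.91 in n-6 minus healthy.

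Tnc, tenascin C, an anti-adhesive protein of healing tissue, read -1.89 and -1.81 in ALA colitis, -1.08 and -1.22 in fish oil colitis, and 0.88 and -0.76 in n-6 colitis, against -1.15 and -1.19 in healthy colon. Both ALA arrays were below every other array, and the 2 n-6 arrays lay far apart. ALA minus n-6 was -1.91 (SE 0.514, unadjusted p = 0.00754, adjusted p = 0.785), and -1.09 without n-6 replicate 1. Thbs2, thrombospondin 2, an inhibitor of vessel growth, read -2.88 and -1.10 in ALA colitis, -3.46 and -3.81 in fish oil colitis, and -1.14 and -3.08 in n-6 colitis, against -3.33 and -3.23 in healthy colon. Replicates of ALA and of n-6 colitis differed by more than any pair of group means for this gene, and ALA minus fish oil was 1.64 (SE 0.758, adjusted p = 0.527). It was 2.53 without ALA replicate 1, 0.76 without ALA replicate 2 and 0.93 with normexp and quantile normalization.

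Spp1, osteopontin, a secreted ligand of integrins, had the second largest n-6 minus healthy difference among the 34, at 1.77 (SE 0.670, unadjusted p = 0.0334, adjusted p = 0.298). Its ALA arrays, -2.05 and -4.07, overlapped its n-6 arrays, -2.54 and -1.98. Sparc, which binds collagen outside the cell, differed by 0.45 in n-6 minus healthy, and Postn, periostin, by 0.25 with overlapping arrays. Tgfbi, a TGF-β-induced adhesive protein, differed by 0.11, also with overlap. None of these 3 had an unadjusted p under 0.05 in n-6 against healthy.

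The 4 proteoglycans split. Vcan and Bgn were among the members with the smallest unadjusted p in n-6 against healthy. Dcn and Lum, which coat collagen fibrils, stood near 0. For Bgn this rests on its brighter probe, since the other gave 0.11 in n-6 minus healthy. Vcan, the large hyaluronan-binding versican, read -0.24 and -0.68 in ALA colitis, -0.95 and -2.12 in fish oil colitis, and 2.04 and 0.57 in n-6 colitis, against -1.73 and -1.56 in healthy colon. Its n-6 arrays were above all others, its ALA arrays lay between n-6 and healthy, and its fish oil arrays overlapped the healthy ones. The n-6 minus healthy difference was 2.95 (SE 0.581, unadjusted p = 0.00146, adjusted p = 0.130), or 7.73-fold, the widest of the 34 members. Fish oil minus n-6 was -2.84 (unadjusted p = 0.0018, adjusted p = 0.388) and ALA minus n-6 was -1.77 (adjusted p = 0.785), or -1.03 without n-6 replicate 1. A second Vcan probe, at base 7466 of the transcript in place of 9272, gave 2.56 in n-6 minus healthy and -2.86 in fish oil minus n-6.

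Bgn, biglycan, which can also act as a danger signal on innate immune receptors, read 4.60 and 4.48 in ALA colitis, 4.06 and 3.79 in fish oil colitis, and 5.08 and 4.81 in n-6 colitis, against 3.66 and 3.47 in healthy colon. Its 4 groups did not overlap. The differences were 1.38 in n-6 minus healthy (SE 0.289, unadjusted p = 0.00202, adjusted p = 0.143), 0.97 in ALA minus healthy (unadjusted p = 0.0119, adjusted p = 0.732) and -1.02 in fish oil minus n-6 (adjusted p = 0.388). The authors' deposited value table gave 0.78, 0.63 and -0.44 for these, and the mean of its 2 probes gave 0.75, 0.64 and -0.31. Dcn, decorin, differed by 0.29 in n-6 minus healthy (SE 0.392) and Lum, lumican, by -0.12 (SE 0.466), with overlapping arrays.

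**Figure D3:**
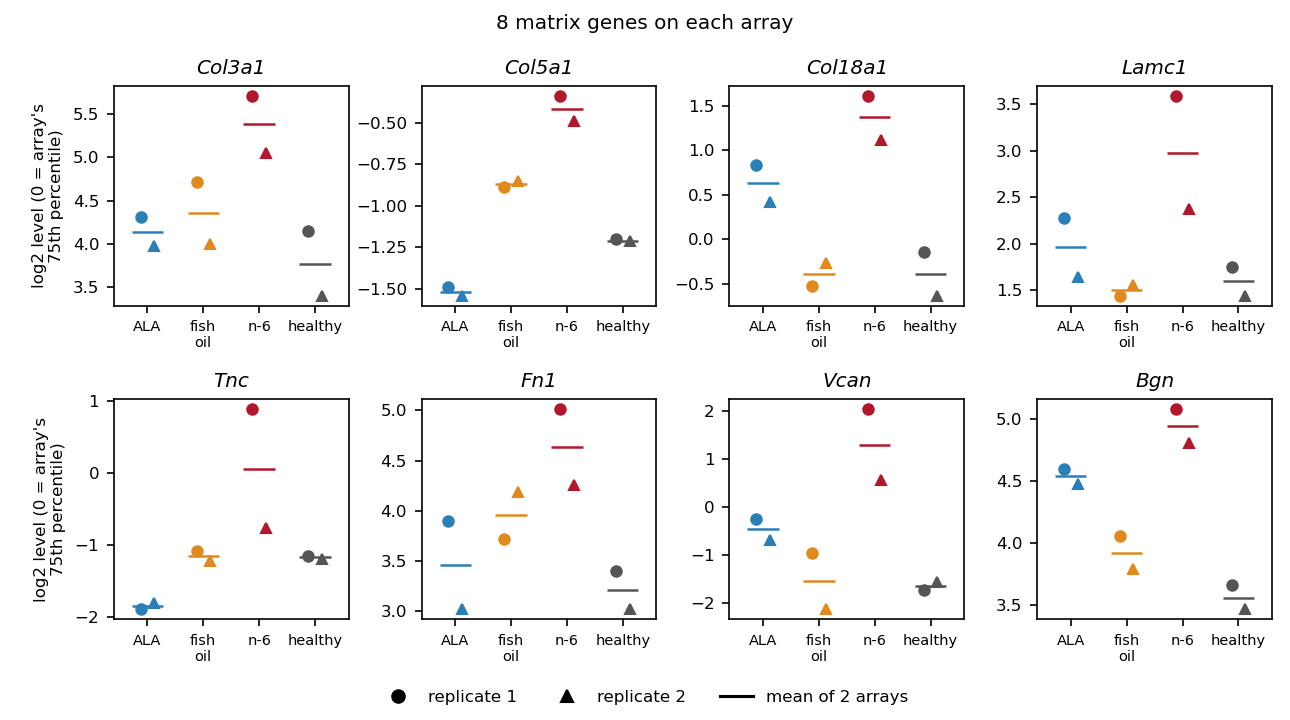
Log2 level of 8 members on each array, with a bar at the mean of 2 arrays, for ALA colitis, fish oil colitis, n-6 colitis and healthy colon from left to right. In all 8 panels the n-6 mean is the highest. The ALA arrays are the lowest group for Col5a1 and Tnc, and the fish oil arrays overlap the healthy ones for Col3a1, Col18a1, Lamc1, Tnc and Vcan.

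The elastic fibre and crosslinking genes were above 0 in n-6 minus healthy and below 0 in fish oil minus n-6 in 4 of 4 members on all arrays. Eln, elastin, the brightest, read 1.27 and 1.33 in ALA colitis, 1.41 and 0.48 in fish oil colitis, and 2.90 and 1.72 in n-6 colitis, against 0.44 and 1.29 in healthy colon. Fbn1, the fibrillin on which elastin is laid, read -2.35 and -2.13 in ALA colitis, -2.23 and -2.15 in fish oil colitis, and -0.67 and -1.56 in n-6 colitis, against -1.87 and -1.74 in healthy colon. For both genes the n-6 arrays were above the other 6, and replicate 1 was well above replicate 2. Eln differed by 1.44 in n-6 minus healthy (SE 0.532, adjusted p = 0.287), and Fbn1 by -1.12 in ALA minus n-6 and -1.07 in fish oil minus n-6 (SE 0.361 for both, adjusted p = 0.785 and 0.388). Without n-6 replicate 1 the Fbn1 differences were -0.68 and -0.63.

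Of the lysyl oxidases, which crosslink collagen and elastin, Loxl2 differed by 0.85 in n-6 minus healthy (SE 0.337, unadjusted p = 0.0399, adjusted p = 0.318) and by -0.86 in fish oil minus n-6. Loxl1 differed by 0.76 and -0.88 in the same comparisons. Lox, the founding enzyme of the family, was not well above background in fish oil colitis. Its fitted difference in fish oil minus n-6 was -1.13 (SE 0.453, adjusted p = 0.390), or 2.19-fold lower, an estimate from dim signal and not a lower bound.

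Timp2, an inhibitor of matrix metalloproteases, read 5.53 and 4.48 in ALA colitis, 4.89 and 4.72 in fish oil colitis, and 5.91 and 5.37 in n-6 colitis, against 4.39 and 4.10 in healthy colon. The n-6 arrays were above the healthy and fish oil arrays, and 1 ALA array reached between them. The n-6 minus healthy difference was 1.39 (SE 0.421, unadjusted p = 0.0133, adjusted p = 0.224). Timp3, the inhibitor that stays bound to the matrix, differed by -0.26 with overlapping arrays. Serpinh1, the chaperone HSP47 that folds procollagen in the endoplasmic reticulum, differed by 0.95 in n-6 minus healthy and by -1.42 in ALA minus n-6 (SE 0.648 for both), with ALA replicates at 1.51 and 3.52.

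Set side by side, fibrillar collagens, basement membrane genes and matricellular genes gave overlapping values. In n-6 minus healthy the median was 0.95 for the 5 fibrillar collagens (from 0.79 to 1.61), 0.83 for the 6 basement membrane genes (from -0.85 to 1.75) and 1.17 for the 7 matricellular and adhesive genes (from 0.11 to 1.77). In ALA minus n-6 these medians were -1.08, -0.82 and -0.80, and in fish oil minus n-6 they were -0.81, -0.81 and -0.68. The difference between roles was not tested.

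Against healthy colon, the 2 n-3 colitis groups showed little of the n-6 pattern. ALA minus healthy had a median of 0.17 over the 34 members (-0.02 over all genes), with 23 above 0 (48.5% of all genes). Both ALA arrays were above both healthy arrays for 5 members (20.9% of all genes) and below them for 5 (20.5%). By limma 0 members passed after adjustment (0% of all genes in either direction), and Bgn and Col18a1 were higher at an unadjusted p under 0.05 (2 of 34, against 2.62% of all genes), with 0 lower (2.12%). Leaving out single arrays moved the first count to between 0 without healthy replicate 2 (1.04% of all genes) and 6 without ALA replicate 2 (3.7%). Col18a1 differed by 1.02 (SE 0.348, adjusted p = 0.736), Vcan by 1.18 (adjusted p = 0.771) and Timp2 by 0.76 (adjusted p = 0.788). Timp2 rested on single arrays here, at 0.23 without ALA replicate 1 and 1.29 without ALA replicate 2.

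Fish oil minus healthy had a median of 0.06 (0.07 over all genes), with 21 of 34 above 0 (57.2% of all genes), and 0 members reached an unadjusted p under 0.05 in either direction (1.85% of all genes higher, 0.731% lower). After limma's adjustment 0 members and 0% of all genes passed. The smallest unadjusted p of limma's fit, 0.133, belonged to Fn1 (0.74, SE 0.438), followed by Col6a2 (0.73), Col6a1 (0.76), Col3a1 (0.59) and Timp2 (0.56), all with an adjusted p of 0.990. Fn1 was 0.39 in the authors' deposited value table and 0.36 with the mean of its probes. Col3a1 ran from 0.21 to 0.97 with 1 array left out and was 0.32 with quantile normalization and 0.24 with normexp added, and Timp2 was 0.29 with either. For Fn1, Col6a2, Col6a1 and Timp2 both fish oil arrays were above both healthy arrays, as was the case for 9 of the 34 members (22.6% of all genes), and for 6 members both were below (17.7%).

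ALA minus fish oil had a median of -0.04 (-0.11 over all genes), with 14 of 34 above 0 (41.6% of all genes). The ALA arrays were above both fish oil arrays for 7 members (18.1%) and below them for 4 (26% of all genes). By limma 0 members passed after adjustment (0% of all genes), and at an unadjusted p under 0.05 Col18a1 was higher (1 of 34, against 2.35% of all genes) and Col5a1 lower (1 of 34, against 3.51%), the values of both standing above. Leaving out single arrays gave 1 or 2 higher (from 1.04% to 4.5% of all genes) and 0 to 2 lower (from 0.89% to 5.39%). Bgn (0.61, SE 0.289) and Vcan (1.07, SE 0.581) were also higher in ALA than in fish oil colitis on both arrays, at adjusted p of 0.527 and 0.553. Bgn was 0.28 here in the authors' deposited value table and 0.21 with the mean of its probes, and Vcan was 0.49 without fish oil replicate 2 and 1.66 without fish oil replicate 1.

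The probes of a gene did not always give the same result. Of the 10 members with 2 probes that passed the filter, 7 gave the same sign by both in n-6 minus healthy and 3 did not. Fn1 gave 1.42 with the probe at base 8136 of its transcript and -0.21 (SE 0.401) with the probe at base 2663. Col14a1 gave 0.50 at base 6335 and -0.25 (SE 0.469) at base 5363. The probes of Bgn had the same sign but differed by more than 1, at 1.38 for base 2372 and 0.11 (SE 0.399) for base 1172. With Col4a1 above, these are 4 genes. The dimmer probe lay nearer the start of the transcript in all 10, in these 4 and in the 6 others alike. In ALA minus n-6 the brighter and dimmer probes differed in sign or by over 1 for Bgn (-0.41 and 0.20), Fn1 (-1.18 and -0.09) and Col14a1 (-0.79 and 0.28), and in fish oil minus n-6 for Bgn (-1.02 and 0.41) and Fn1 (-0.68 and 0.18). Dimmer probes read from -4.08 to -3.05 for Fn1, -4.82 to -3.54 for Col14a1, -2.87 to -1.79 for Bgn and -5.56 to -4.68 for Col4a1. Those of Lamc1 (from -4.68 to -3.06) and Eln (from -5.57 to -4.14) were also dim, with the sign of the brighter probe. The parts of probe position and brightness in the differences were not tested. For Vcan, Lamc1, Col12a1, Col1a1, Col5a2 and Eln both probes had the same sign in all 3 comparisons.

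**Figure D4:**
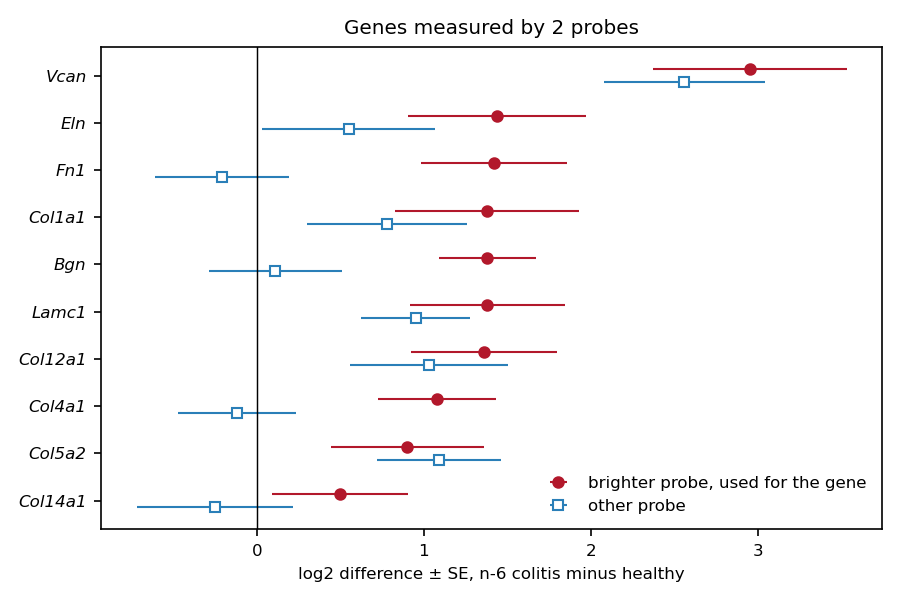
Log2 difference of n-6 colitis minus healthy, with its standard error, for the 10 members with 2 tested probes. Filled circles are the brighter probe, used for the gene, and open squares the other. The squares of Fn1, Bgn, Col4a1 and Col14a1 lie at -0.21, 0.11, -0.12 and -0.25, while those of the other 6 genes are above 0.

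Some members are neighbours in the genome. On rn4 the probes of Col4a1 and Col4a2 lie 257 kb apart on chromosome 16 and on opposite strands, a pair known to be transcribed outward from a shared promoter. The probes of Col3a1 and Col5a2 lie 57 kb apart on chromosome 9, those of Dcn and Lum 49 kb apart on chromosome 7, and those of Col6a1 and Col6a2 127 kb apart on chromosome 20, with Col18a1 356 kb from Col6a1. In n-6 minus healthy the difference was 1.08 for Col4a1 and 0.57 for Col4a2, and 1.61 for Col3a1 and 0.90 for Col5a2. It was 0.29 for Dcn and -0.12 for Lum, and 1.31 for Col6a1 and 1.39 for Col6a2, so the members of a pair had the same sign except Dcn and Lum. Since 31 of the 34 members were above 0, most members share a sign whether neighbours or not. For Col4a1 and Col4a2 the shared sign rests on the brighter Col4a1 probe, since the other gave -0.12.

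RefSeq promoters (GRCr8 build, 250 bases before each gene's annotated start) were held for 27 of the 39 members and 27457 genes in all. A CCAAT box (CCAAT on either strand, searched because the type I collagen promoters are known for one) was present in 8 of the 27, against 34.3% of all promoters. TATAAA on the gene's own strand was present in 4 of the 27 (Col1a2, Postn, Spp1 and Tnc), against 8.38%, and a GC box (GGGCGG on either strand) in 16, against 32.4%. An AP-1 site (TGANTCA on either strand) was present in Col6a1 alone, against 6.36%, and the palindromic Smad box GTCTAGAC in 0, against 0.186%. These letters are a description of the windows and do not show binding. The first 100 bases of the window, from 250 to 151 bases before the start, are shown for 3 members whose levels stand above, with CCAAT (read here as its complement, ATTGG) and TATAAA in capitals. They lie at chr4:33518307-33518406 on the plus strand for Col1a2, chr2:22596106-22596205 on the minus strand for Vcan and chr5:82476282-82476381 on the minus strand for Tnc.
Col1a2 promoter: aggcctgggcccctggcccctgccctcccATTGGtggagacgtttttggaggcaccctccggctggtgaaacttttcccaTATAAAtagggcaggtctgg
Vcan promoter: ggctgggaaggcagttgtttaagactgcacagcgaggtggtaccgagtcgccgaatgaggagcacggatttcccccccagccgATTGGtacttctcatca
Tnc promoter: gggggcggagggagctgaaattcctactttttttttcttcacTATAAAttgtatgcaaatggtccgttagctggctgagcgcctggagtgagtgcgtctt
Of the CCAAT box and TATAAA, the Col1a2 window holds both, Vcan only the CCAAT box and Tnc only TATAAA. The Tnc stretch also holds a GC box near its first base, which is not in capitals.

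Genes outside the 39 that make, process or bind matrix gave smaller medians in n-6 minus healthy, and limma passed 0 of them after adjustment in any of the 6 comparisons. Over genes on all 8 arrays the median was 0.49 for 14 collagen processing genes, 0.11 for 9 other collagens, 0.34 for 7 other basement membrane genes, 0.35 for 22 other glycoproteins and proteoglycans and 0.24 for 13 matrix receptors. At an unadjusted p under 0.05, 3 of the 14 processing genes, 2 of the 9 collagens, 2 of the 7 basement membrane genes, 5 of the 22 glycoproteins and proteoglycans and 2 of the 13 receptors were higher (5.52% of all genes), and 1 collagen was lower (8.76%). Pcolce, which speeds removal of the C-propeptide, a part of the procollagen chain cut off outside the cell, differed by 1.75 (SE 0.392, unadjusted p = 0.003), and Tgm2, a crosslinking transglutaminase, by 2.03 (SE 0.433, unadjusted p = 0.00229). Col5a3, another type V chain, differed by 1.53. Col16a1, another fibril-associated collagen, differed by 1.25, Emilin1, a glycoprotein of elastic fibres, by 1.09 and Itga1, a collagen-binding integrin chain, by 1.13 (SE 0.771). P4hb, a subunit of prolyl hydroxylase, differed by -0.82, Sparcl1, a relative of Sparc, by -0.48 and Sdc1, an epithelial heparan sulfate proteoglycan, by -0.17. The other brightest genes of these lists, Ppib (0.50), Agrn (0.34), Col19a1 (0.24), Dag1 (0.24) and Lamb3 (0.15), each had an unadjusted p of 0.107 or more. In ALA minus n-6 the medians of the 5 lists ran from -0.58 to -0.16, and in fish oil minus n-6 from -0.24 to 0.31.

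Markers of several cell types differed between the same arrays. The summed linear level of 7 fibroblast markers was 20.2 and 12.4 on the n-6 arrays, against 10.0 and 11.4 on the healthy arrays, and ran from 7.51 to 10.6 on the 4 n-3 arrays. Mfap5, 1 of the 7, is also on the list of other glycoproteins and proteoglycans, so this sum holds a matrix gene. Mfap5 read 2.84 and 1.58 on the n-6 arrays and 1.28 and 1.86 on the healthy arrays. Of the 6 fibroblast markers on all arrays, 5 were above 0 in n-6 minus healthy, with a median of 0.76, and Vim was below 0, at -0.38. In ALA minus n-6, 6 of 6 were below 0, and in fish oil minus n-6, 5 of 6. The 7 macrophage markers summed to 25.2 and 25.6 in n-6 colitis, against 12.6 and 10.2 in healthy colon. They summed to 24.5 and 19.4 in ALA colitis and to 22.6 and 16.2 in fish oil colitis, so all 6 colitis arrays were above both healthy arrays. The 8 smooth muscle markers summed to 287 and 290 in ALA colitis, 491 and 417 in fish oil colitis, and 344 and 382 in n-6 colitis, against 419 and 266 in healthy colon, so the n-6 and healthy arrays overlapped. That sum leans on Actg2, the brightest, at 0.05 in n-6 minus healthy. By limma Acta2 (1.18, unadjusted p = 0.0267, adjusted p = 0.272) and Des (1.02, unadjusted p = 0.0497, adjusted p = 0.341) did not pass after adjustment. They were higher in n-6 colitis at an unadjusted p under 0.05 (2 of 8, against 5.52% of all genes), and 0 were lower (8.76%). Of the 8, 4 were above 0 and 4 below, with a median of -0.05. The 11 epithelial markers summed to 276 and 288 in ALA colitis, 500 and 339 in fish oil colitis, and 137 and 374 in n-6 colitis, against 341 and 410 in healthy colon, with n-6 replicate 1 the lowest of all 8 arrays, and the same array was the highest of the 8 for 26 of the 34 members. The 5 red cell genes summed to 159 and 108 in n-6 colitis, against 5.06 and 4.43 in healthy colon and from 6.46 to 9.53 in the n-3 groups. Of them Hba-a1, Hbb and Hbb-b1, well above background on all 8 arrays, passed the adjusted test as higher in n-6 colitis (4.82 for Hba-a1, adjusted p = 0.0106). Of the 4 red cell genes on all 8 arrays, 3 passed limma's adjusted test as lower in ALA than in n-6 colitis. The count was also 3 for fish oil against n-6 colitis (0.029% of all 13814 genes in each). The medians of the 4 were -3.71 and -4.25. Alas2 was well above background on both n-6 arrays, 1 ALA array, 1 fish oil array and 0 healthy arrays, so it entered the test through n-6 colitis and its call is not used. The part of these cell types in the matrix differences was not tested.

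**Figure D5:**
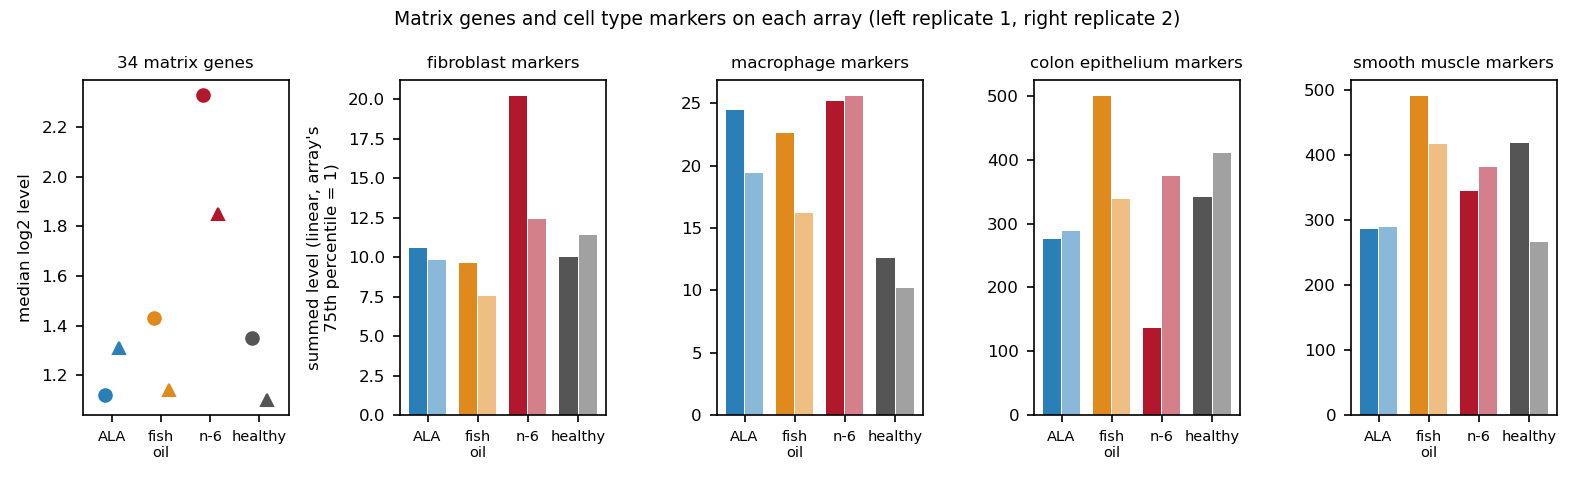
Median log2 level of the 34 members (points, first panel) and summed linear level of fibroblast, macrophage, colon epithelium and smooth muscle markers (bars, relative to the array's 75th percentile) on each array, for ALA colitis, fish oil colitis, n-6 colitis and healthy colon. The n-6 points, 2.33 and 1.85, are above the other 6 (1.1 to 1.43), n-6 replicate 1 has the tallest fibroblast bar (20.2) and the shortest epithelial bar (137).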

How the data were processed

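Colon RNA of 4 groups was measured on 8 arrays, 2 per group. The deposited intensity of each spot was made with Agilent Feature Extraction 11.5.1.1, which subtracts background and removes spatial trends, and probe positions are on rn4, per the file headers. The authors' deposited log2 value table has a 75th percentile near 0 in each column and was used as an alternative; the sources used here do not give its further processing.

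Processed signals were log2-transformed, scaled to the 75th percentile of each array and averaged over spots of a probe, leaving out control and outlier-flagged spots. A probe was tested if both arrays of any group had it well above background, and each gene was read from its brightest probe. Differences were fitted with limma 3.58.1 in R 4.3.3 over 4 groups (4 residual and 2.96 prior degrees of freedom), with Benjamini-Hochberg adjustment over 18171 genes. The script was tested on simulated data. Unadjusted p-values are from the same limma fit. The number of arrays limits the precision, and the pooling of rats leaves the spread between animals unmeasured.

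Values on each array are given for the members with the smallest unadjusted p (up to 12, 8, 8 and then 5 per comparison) and for the brightest of each role; of the wider lists, the genes that passed, and otherwise the 3 brightest of each list, are named. 1 gene of the wider lists that this rule names and 1 pair of probe sequences are not reported here. The members and lists were chosen with earlier results of these data known. Groups share replicate numbers 1 and 2, but deviations of same-numbered arrays correlated between -0.168 and 0.47, so the numbers were not taken to pair arrays.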

Additional observations from a re-analysis of the deposited data

How the results depend on the processing

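The count of members passing limma's adjusted test was 0 in all 6 comparisons under all 18 alternatives run for each. The smallest adjusted p of any member ran from 0.0522 (without n-6 replicate 2) to 0.466 in n-6 against healthy, from 0.182 to 0.999 in ALA against n-6 and from 0.0575 to 0.894 in fish oil against n-6. Leaving out each array in turn, the median member difference ran from 0.72 to 1.32 in n-6 minus healthy, from -1.03 to -0.43 in ALA minus n-6, from -1.03 to -0.57 in fish oil minus n-6, from 0.03 to 0.35 in ALA minus healthy, from -0.05 to 0.24 in fish oil minus healthy and from -0.08 to 0.08 in ALA minus fish oil, so the last 2 have no settled sign. Median centring in place of the 75th percentile moved the median of all 18171 genes from -0.06 to 0.11 in n-6 minus healthy, from 0.15 to -0.01 in ALA minus n-6 and from 0.12 to -0.04 in fish oil minus n-6, and the member medians to 1.11, -0.92 and -0.99. Members lower at an unadjusted p under 0.05 then numbered 15 for ALA, against 8 as reported, and 16 for fish oil, against 11. For ALA there were 13 with an intensity trend and 4 with only the groups compared. For fish oil there were 17 with normexp and quantile normalization and 6 with only the groups compared. The deposited value table turned Col4a1 in ALA minus n-6 to 0.09 (adjusted p = 0.998, within 0.375 to 0.999 over the alternatives for that value), and the cause was not tested. With the replicate block 0 members passed and the medians were 0.95, -0.77 and -0.83 in the 3 main comparisons, while 11 genes in all passed in n-6 against healthy, against 6 without the block, and 0 in ALA against n-6, against 6.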
